A study of Mus musculus with 4 samples.

Results

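The level of 7 genes was followed across the cells of irradiated and mock-treated tumors: the death ligands Fasl, Tnfsf10 and Tnf and the receptors Fas, Tnfrsf10b, Tnfrsf1a and Tnfrsf1b. They were matched by symbol in the gene lists of all 4 single-cell libraries, and all 7 were found among the 18605 genes that every library lists. The identifiers are ENSMUSG00000024778 for Fas, ENSMUSG00000000817 for Fasl, ENSMUSG00000022074 for Tnfrsf10b, ENSMUSG00000039304 for Tnfsf10, ENSMUSG00000024401 for Tnf, ENSMUSG00000030341 for Tnfrsf1a and ENSMUSG00000028599 for Tnfrsf1b.

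The tumors were subcutaneous grafts of the Lewis lung carcinoma (LLC) cell line in the flank of C57BL/6N mice aged 6 to 8 weeks. The sample labels spell the strain C57/BL6N. RT mice received 24 Gy in 3 fractions of 8 Gy on days 7 to 9 after cell injection, when tumors averaged 100 mm3, and NT mice were mock treated. Tumors were collected 72 h after radiation, dissociated and cleared of debris and dead cells before capture. RT1, RT2 and RT3 are libraries of 1 tumor each, and NT is 1 library of 3 pooled tumors. The graft is 1 cell line in its syngeneic strain, and cells that had died were not sampled.

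The libraries held 10141 (NT), 15346 (RT1), 14994 (RT2) and 15324 (RT3) barcodes, with 69667759, 78585759, 108699844 and 85660188 unique molecular identifiers (UMIs). After removal of barcodes with fewer than 200 genes or more than 20% mitochondrial UMIs, 55058 of 55805 barcodes were kept, with a median of 5709, 3864, 5200 and 4158 UMIs in the same order. The RT2 table differed from the others as deposited. It listed 18605 genes by symbol alone where the others listed 32285, and no barcode in it exceeded 11.95% mitochondrial UMIs, against 92.6%, 91.5% and 97.0% in NT, RT1 and RT3. Between 182 and 277 barcodes were shared by any pair of libraries, at most 1.85% of a library.

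Death receptors are members of the TNF receptor family. Fas and Tnfrsf10b, the mouse TRAIL receptor, carry an intracellular death domain that binds the adaptor Fadd and activates caspase 8 when Fasl or Tnfsf10 (TRAIL) engages them on a neighboring cell. Tnfrsf1a (TNF receptor 1) also has a death domain but mainly drives inflammatory NF-kB signaling, with cell death when survival factors fail. Tnfrsf1b (TNF receptor 2) has no death domain. Fasl is a weapon of cytotoxic T and NK cells, Tnf is made mainly by activated macrophages and monocytes, and Fas and Tnfrsf10b are known targets of the DNA-damage regulator p53.

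The sequences upstream of Fas and Tnf are printed because this receptor and this ligand took opposite directions in different cell types below. Each is the 250 bases before the RefSeq transcription start in the GRCm38.p6 build, 5′ to 3′ on the gene's strand. Capitals mark a TATA box (TATAAA) or a GC box (GGGCGG), searched on both strands. Fas lies at chr19:34290409-34290658 on the plus strand and Tnf at chr17:35202008-35202257 on the minus strand.
Fas: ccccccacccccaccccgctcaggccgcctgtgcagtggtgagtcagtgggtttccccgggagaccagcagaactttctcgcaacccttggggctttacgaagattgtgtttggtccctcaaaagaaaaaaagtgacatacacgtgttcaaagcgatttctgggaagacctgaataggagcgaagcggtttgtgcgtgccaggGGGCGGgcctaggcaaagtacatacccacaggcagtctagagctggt
Tnf: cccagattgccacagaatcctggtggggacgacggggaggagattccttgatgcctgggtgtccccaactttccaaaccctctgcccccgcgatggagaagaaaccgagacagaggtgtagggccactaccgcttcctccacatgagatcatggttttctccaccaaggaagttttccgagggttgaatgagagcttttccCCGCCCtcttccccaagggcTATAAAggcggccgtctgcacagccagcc
The Fas window holds a GC box that starts 47 bases before the transcription start and no TATA box. The Tnf window holds a TATA box 29 bases and a GC box on the opposite strand 49 bases before the start. These letters alone are common, since 12.4% of 32851 windows of this length hold the TATA box and 32.7% hold the GC box. The Fasl and Tnfrsf1b windows hold a GC box, those of Tnfsf10 and Tnfrsf1a hold neither, and Tnfrsf10b was not matched.

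Cells were clustered and named from marker genes. Tumor cells (31338 cells, 10 of 10 markers detected, with Rhox5 at 1059, 1309, 1197 and 1184 CPM in NT, RT1, RT2 and RT3) made up 72.1% of NT cells and 52.4%, 48.2% and 60% of RT cells. Macrophages numbered 675, 2500, 2490 and 1426 cells and monocytes 587, 2011, 2180 and 1960. Lymphocytes numbered 352, 333, 561 and 307 cells, mostly NK cells and CD8 T cells. Dendritic cells, neutrophils, fibroblasts and endothelial cells were rarer, and the NT library held only 20 neutrophils, 7 fibroblasts and 42 endothelial cells, so NT levels in these rest on few UMIs. A further 6333 cells stayed unnamed and 328 carried markers of more than 1 lineage.

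A level is given in CPM, the gene's UMIs per 1000000 UMIs of that population in that library, and every list of 4 levels below runs NT, RT1, RT2, RT3. Levels are not compared between genes. A change is the log2 of an RT level over the NT level, given as mean ± SD over the 3 RT libraries, which all share the same NT library. No test between NT and RT was run on the 1 NT library, and an exact permutation over 4 libraries cannot give a p below 0.25. A gene was called different in a population by size alone, when it was at least 2-fold apart from NT in the same direction in every RT library, or by the weaker rule that every RT library lay on the same side of NT. Intervals are exact 95% Poisson intervals on the UMIs or Clopper-Pearson intervals on shares, and cover counting error only.

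Of 56 gene and population pairs, 44 had enough UMIs to be read. Of these, 4 (9.09%) were at least 2-fold apart from NT in every RT library, against 7.39% of all 69398 pairs of genes and populations read in the same way, and 29 (65.9%) lay on the same side of NT in every RT library, 17 higher and 12 lower, against 61.1% of all pairs (30.7% above and 30.4% below). The 7 genes as a group therefore moved about as often as other genes, and the values below describe in which cells each one lay. Of the 6 members read in at least 5 populations, 5 had every RT library above NT in at least 1 population and below it in another, and so did 61.9% of the 7301 genes read in as many. By population, the members on the same side of NT were 6 of 6 in macrophages (66.1% of all genes there), 5 of 6 in monocytes (64.3%), 4 of 7 in lymphocytes (60%) and 3 of 6 in tumor cells (62.4%). The 4 pairs past 2-fold were Fas in endothelial cells, Tnfrsf10b in macrophages and Tnfrsf1a in fibroblasts, all higher, and Tnfrsf10b in neutrophils, lower. Of all genes, 4.35% in endothelial cells, 4.48% in macrophages and 7.93% in fibroblasts were as much higher, and 8.15% in neutrophils as much lower. Of these 4, 3 rest on NT populations of under 50 cells, and Tnfrsf10b in macrophages rests on 3 NT UMIs.

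**Figure D1:**
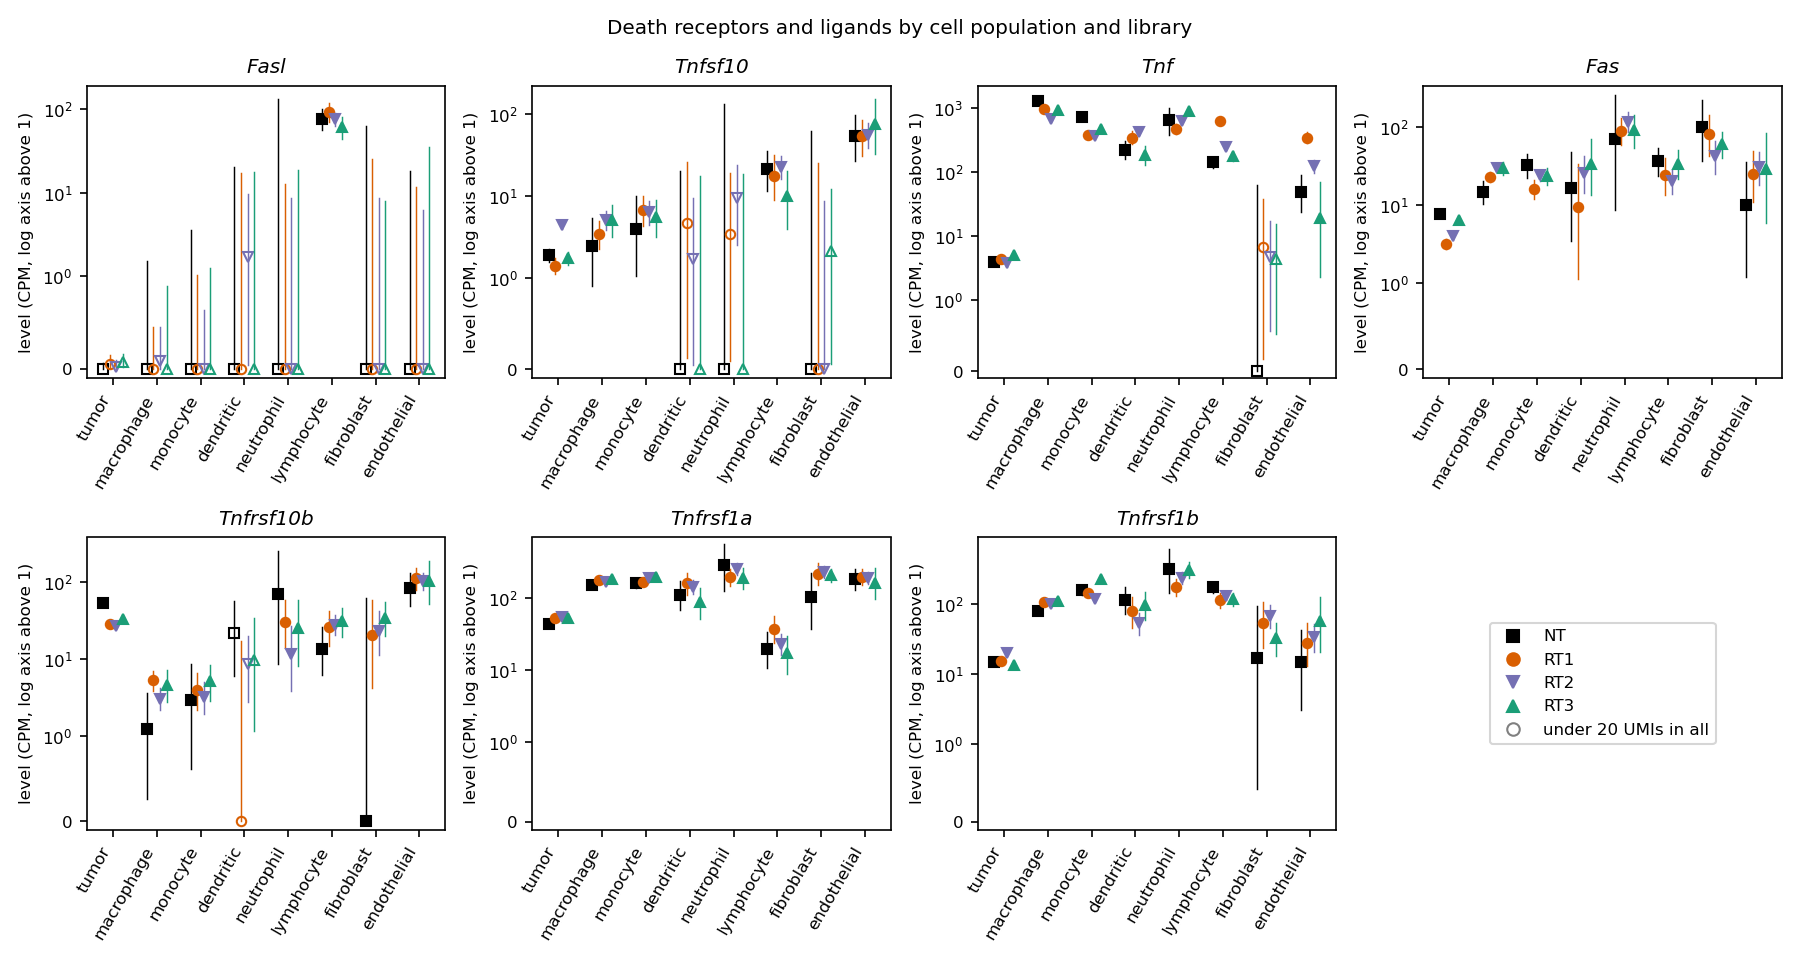
Level of each of the 7 genes (CPM, on a symmetric log axis) in 8 cell populations, 1 point per library, with exact 95% Poisson intervals. Open points mark gene and population pairs with fewer than 20 UMIs in all. Tnf was highest in macrophages, Fasl in lymphocytes and Tnfrsf10b in endothelial cells, ahead of tumor cells.

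Tnf, the soluble and membrane-bound inflammatory ligand, lay mostly in macrophages and monocytes. In macrophages the level was 1310.1, 949.5, 670.05 and 949 CPM, from 3182, 7751, 8324 and 3893 UMIs. The NT value was above all 3 RT values and outside their 95% intervals, which run from 928.5 to 971 CPM in RT1, 656 to 685 in RT2 and 919 to 979 in RT3, and the change was -0.63 ± 0.29 on the log2 scale (n = 3). Monocytes gave 713, 373, 372 and 472 CPM (-0.82 ± 0.20), again with NT above every RT library. The C1q genes of macrophages stood in monocytes at 26.1%, 17.8%, 19.2% and 12.6% of their macrophage level. With a macrophage part scaled by them taken off, monocyte Tnf was 371, 204, 243 and 352 CPM, so that RT3 came close to NT. The share of genes below NT in every RT library was 33.5% in macrophages and 23.8% in monocytes. Markers of other cells differed between the macrophage libraries. Mast cell and basophil markers (7 of 7 detected, none at 0 over all libraries) summed to 0.412, 0.245, 0.0805 and 103 CPM, led by Cpa3 at 50.7 CPM in RT3, and B and plasma cell markers (4 of 5 detected) to 51.5, 6.13, 12.2 and 10.2, led by Ighm. Neutrophil markers (8 of 8, led by Csf3r) were higher in every RT library, at 23.9, 93.6, 154 and 88.2 CPM. In monocytes, neutrophil markers (8 of 8, led by Mmp8) likewise summed to 63.7, 158, 273 and 299 CPM, and dendritic cell markers (10 of 10, led by H2-DMb2) to 119, 50.5, 55.04 and 56.6. Fibroblast markers (8 of 8, led by Col3a1) were 56.0, 107, 71.5 and 132 CPM in macrophages and 70.6, 164, 102 and 207 in monocytes. The part of these cells in Tnf and in the other macrophage and monocyte changes was not tested.

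The share of cells with a transcript gave the same order of groups. After each macrophage was thinned to 1000 UMIs, 47.2% of NT macrophages and 40.1%, 35.3% and 38.4% of RT macrophages held a Tnf UMI, with 109, 437, 351 and 282 shallower cells left out. Without thinning the shares were 63.3%, 57.4%, 61.6% and 52.5% at median depths of 2935, 2610.5, 4244 and 2345.5 UMIs. Tumor cells, which are not a known source of Tnf, held a UMI in only 2.67%, 2.69%, 2.86% and 2.97% of cells at median depths of 7439, 6117, 8869.5 and 6373 UMIs. Among 13 sub-clusters of the myeloid cells (macrophages, monocytes and dendritic cells), Tnf was lower in every RT library in 8 and higher in none. Sub-clusters here and below are parts of the same 4 libraries and share the NT library, so they are not replicates. No share of all genes is given beside their counts. The sub-cluster with the highest level over all libraries, 2563 cells led by Lyve1, Ccl8 and Fcna, gave 2154, 1350.1, 904 and 1335 CPM. It ranked highest in 3 of 4 libraries, and in RT2 another sub-cluster stood at 1206 CPM.

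Over all kept cells Tnf went the other way, with 65.2, 140.4, 119 and 76.7 CPM, and 35.2% of all genes were likewise above NT in every RT library. Macrophages held 70.5% of all Tnf UMIs in NT and 65.1% ± 5.71 in RT (SD, n = 3), and monocytes held 16.1% in NT and 12.2%, 16.9% and 21.1% in RT. Macrophages gave 3.51% of all UMIs in NT and 10.51%, 11.4% and 4.83% in RT. When the levels within the RT populations were weighted by the NT composition, the tissue level came to 52.5, 37.5 and 48.9 CPM against 64.3 CPM in the named cells of NT, a change of -0.49 ± 0.25. With the NT levels weighted by the RT compositions it was 1.30 ± 0.59, and as measured in the named cells it was 0.72 ± 0.47. So the tissue total was above NT in every RT library, while the level inside its main source populations was below NT.

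**Figure D2:**
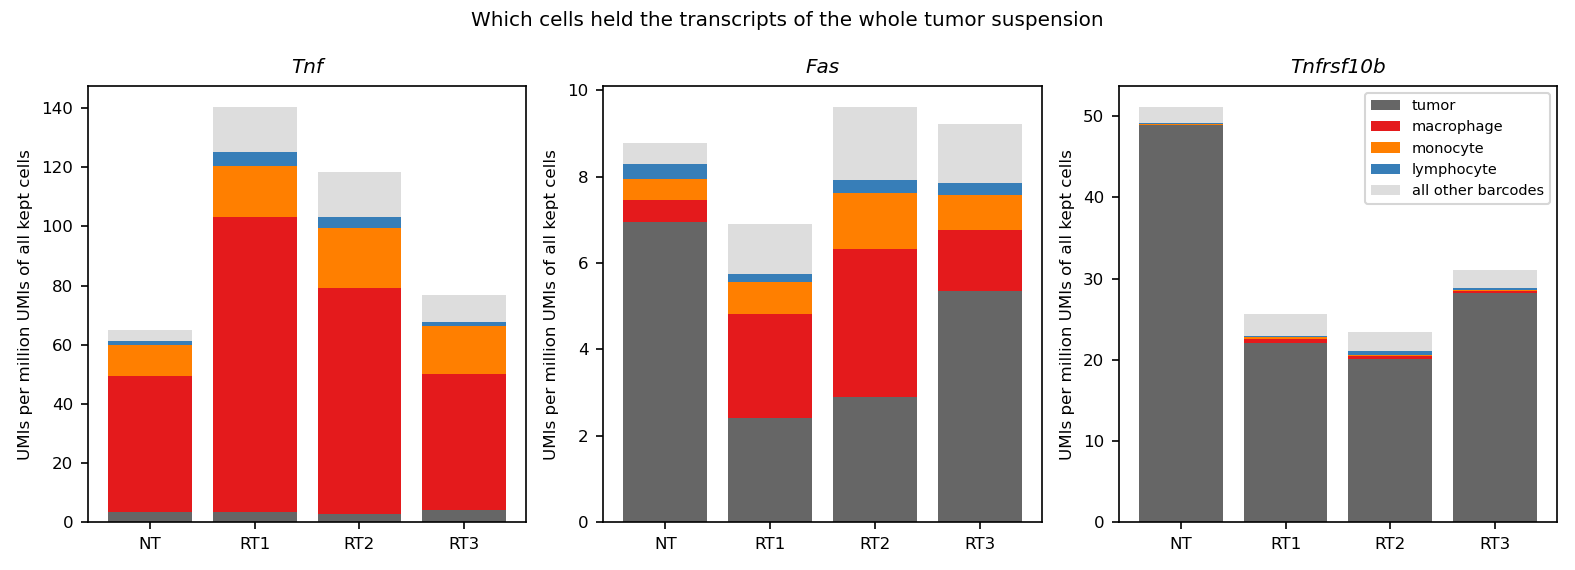
UMIs of Tnf, Fas and Tnfrsf10b relative to all UMIs of the kept cells (CPM) in each library, stacked by the cell population that held them. Macrophage Tnf fills most of each Tnf bar, while the tumor part of Fas and Tnfrsf10b is smaller in every RT library than in NT.

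Lymphocytes were the population in which Tnf stood higher, with 142, 628, 242 and 176 CPM from 94, 388, 407 and 125 UMIs (1.07 ± 0.95), and 24.8% of all genes there were above NT in every RT library. RT1 stood far above the other RT libraries, and the change was 0.53 without it, and the RT3 interval of 147 to 210 CPM overlapped the NT interval of 115 to 174. NK cells gave 145, 583, 220.3 and 156 CPM and CD8 T cells 119, 532, 223 and 165, so both lymphocyte types followed the same order of libraries. All 10 macrophage markers were detected in lymphocytes, none at 0, and their summed level was 124, 716, 602 and 269 CPM, led by C1qb at 19.7, 144, 163 and 55.0. Scaled by the C1q genes, macrophage RNA would account for 11.6, 33.3, 20.9 and 14.2 CPM of lymphocyte Tnf, which leaves 131, 595, 221 and 162 CPM, still above NT in each RT library. Neutrophil markers (8 of 8, none at 0, led by S100a9) stood in the lymphocytes at 3.03, 162, 71.3 and 14.1 CPM, in the same order of libraries as Tnf, and mast cell and basophil markers (7 of 7, none at 0, led by Cpa3) at 12.1, 82.6, 67.1 and 308. The part of these in lymphocyte Tnf was not tested.

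The order of levels was macrophages, then neutrophils, monocytes, dendritic cells and lymphocytes, whose neighbors could not be told apart in all 4 libraries, then endothelial cells and last tumor cells. The other populations showed no common direction for Tnf. Neutrophils gave 639, 469.9, 637 and 909 CPM, the NT value from 18 UMIs, dendritic cells 221, 345, 429.7 and 183, and endothelial cells 49.3, 345, 125 and 19.1. Tumor cells gave 3.96, 4.43, 3.72 and 5.07 CPM. The tumor sub-cluster with most Tnf, 158 cells led by Il1b, Plac8 and Ccl4, stood at 69.5 CPM over all libraries and the other tumor sub-clusters read for Tnf at 9.53 or less. Its leading genes are myeloid, and markers of macrophages were detected in the tumor population as a whole (10 of 10, none at 0, summed level 8.84, 43.4, 52.4 and 24.4 CPM, led by C1qb). Scaled by the C1q genes, macrophage RNA would account for 0.641, 2.06, 1.68 and 1.09 CPM of the Tnf in tumor cells.

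Fasl, the ligand of Fas on cytotoxic lymphocytes, was found almost only in lymphocytes, which held 92.6% of its UMIs in NT and 88.7% ± 4.96 in RT (SD, n = 3). Their level was 75.8, 92.3, 75.4 and 60.7 CPM from 50, 57, 127 and 43 UMIs, with RT on both sides of NT and a change of -0.01 ± 0.30. CD8 T cells stood at 99.8, 115, 102 and 99.1 CPM (0.08 ± 0.12) and NK cells at 107.5, 103, 72.6 and 53.7 (-0.54 ± 0.47), where the NT value rests on 20 UMIs. The NK cells of every RT library were thus below NT, as were 31.8% of all genes in NK cells. Their own summed markers (8 of 8, none at 0, led by Fcer1g) stood at 5553, 5485, 4694 and 4154 CPM, in the same order of libraries. Mast cell and basophil markers (7 of 7, none at 0, led by Cpa3) stood in NK cells at 37.6, 146, 144 and 554 CPM. The part of these in NK Fasl was not tested. NK cells held 40.0% of the lymphocyte Fasl UMIs in NT and 63.2%, 43.3% and 48.8% in RT, and CD8 T cells 42.0%, 22.8%, 41.7% and 41.9%.

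A Fasl UMI was seen in 11.6%, 14.7%, 17.1% and 12.1% of lymphocytes, and in 7.59%, 8.91%, 7.59% and 6.56% once thinned to 1000 UMIs. Median depths were 1299.5, 1258, 1822 and 1402 UMIs. Tumor cells, which should lack Fasl, held a UMI in 0 of 7197 NT cells, which allows a level of up to 0.0480 CPM (3 UMIs), and in 0.0381%, 0.0276% and 0.0553% of RT cells despite their greater depth. Macrophages held 1 Fasl UMI in all, in RT2. Transcripts of this ligand lay in cytotoxic lymphocytes in NT and RT tumors, and over all lymphocytes the RT levels lay on both sides of NT.

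Tnfsf10 (TRAIL), an interferon-inducible ligand, was sparse, with 158 to 555 UMIs per library. Endothelial cells had the highest level, 54.2, 53.3, 55.5 and 76.6 CPM, the NT value from 11 UMIs, and lymphocytes followed with 21.2, 17.8, 22.6 and 9.88. Macrophages gave 2.47, 3.43, 5.07 and 5.12 CPM (0.85 ± 0.33) and monocytes 3.92, 6.73, 6.33 and 5.48 (0.65 ± 0.15). Both myeloid populations were above NT in every RT library, but the NT values are 6 and 4 UMIs. Within macrophages 32.6% of genes lay above NT in every RT library, and within monocytes 40.5%.

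Tumor cells held 75.3% of Tnfsf10 UMIs in NT and 47.2%, 63.1% and 65.6% in RT, at 1.90, 1.40, 4.39 and 1.75 CPM (0.22 ± 0.87). RT2 alone was above NT, and the change was -0.28 without it. Much of the tumor transcript came from a single sub-cluster of 1157 cells led by Ifit3 and Iigp1, which are interferon-response genes. It gave 18.7, 19.6, 31.7 and 20.7 CPM and ranked highest in all 4 libraries, where no other tumor sub-cluster read for Tnfsf10 exceeded 2.501 CPM over all libraries. Sub-clusters of the myeloid cells reached 45.6 and 27.5 CPM, so this ligand marked small groups of cells within several lineages.

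Tnfrsf1a, the widely expressed death-domain receptor of Tnf, was present in every population read. Tumor cells gave 42.9, 52.6, 54.8 and 52.9 CPM from 2681 NT UMIs, a change of 0.32 ± 0.03, and 13 of 15 tumor sub-clusters were above NT in every RT library while 2 were below. The change is small and the 3 RT libraries differ little, while NT stands below them. Macrophages stood at 149.9, 175, 167 and 179.8 CPM (0.21 ± 0.06) and monocytes at 161, 167, 189 and 197 (0.19 ± 0.12), also with every RT library above NT. In monocytes RT1 was only 0.06 above NT, and with size factors in place of CPM its change was -0.08, so that the weaker rule was no longer met. In tumor cells 33.3% of all genes met that weaker rule in the same direction.

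Fibroblasts passed the 2-fold rule with 101, 217, 229 and 207 CPM (1.10 ± 0.07), but the NT value is 6 UMIs from 7 cells, and at a mitochondrial limit of 10% the change was 0.97, so that the call was lost. Endothelial cells at 182, 198, 189 and 163 CPM, dendritic cells at 111, 158, 142 and 86.9 and lymphocytes at 19.7, 37.2, 22.6 and 16.9 lay on both sides of NT. Neutrophils, endothelial cells, fibroblasts, monocytes and macrophages headed the order in levels not told apart from their neighbors, and lymphocytes were the lowest in all 4 libraries, below tumor cells. Tumor cells nevertheless held 78.9% of its UMIs in NT and 53.8%, 50.9% and 67.0% in RT, and they gave 90.3% of UMIs of all genes in NT and 76.1%, 73.4% and 84.5% in RT. In all named cells the change was 0.56 ± 0.13, and 0.30 ± 0.02 at the NT composition.

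Tnfrsf1b, the other Tnf receptor, which has no death domain, had its highest levels in immune cells. Monocytes gave 158, 143, 120.3 and 226 CPM and neutrophils 319.6, 175, 237 and 308, the NT value from 9 UMIs. In macrophages the receptor stood higher in every RT library, at 79.9, 109, 101 and 111 CPM (0.42 ± 0.07). Lymphocytes went the opposite way, with 176, 113, 131 and 119 CPM (-0.54 ± 0.10), and both of their main types shared that direction. CD8 T cells gave 276, 177, 190.2 and 159.6 CPM (-0.65 ± 0.13) and NK cells 118, 88.7, 102 and 92.0 (-0.33 ± 0.10). Every RT library lay below NT for 35.2% of all genes read in lymphocytes, 30.1% in CD8 T cells and 31.8% in NK cells. Tumor cells stood last in the order, at 15.1, 15.2, 19.9 and 13.8 CPM, with RT on both sides of NT. As the largest population they still held 62.0% of its UMIs in NT and 33.7%, 37.4% and 40.2% in RT, and macrophages held 12.8% in NT and 33.5%, 29.7% and 18.6% in RT. The level over named cells changed by 0.63 ± 0.23, of which 0.10 ± 0.13 was left at the NT composition.

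Fas, the receptor of Fasl, took different directions in tumor cells and macrophages. In tumor cells it was 7.69, 3.16, 3.96 and 6.33 CPM from 481, 187, 316 and 455 UMIs, a change of -0.84 ± 0.51. All 3 RT libraries lay below NT, and RT3, with an interval of 5.76 to 6.94 CPM against 7.02 to 8.41 in NT, was the nearest to it. Tumor cells with a Fas UMI were 5.88%, 2.15%, 3.62% and 4.34%, and 0.761%, 0.322%, 0.355% and 0.602% after thinning to 1000 UMIs. Of 12 tumor sub-clusters read, 10 were below NT in every RT library, and the other 2 lay on both sides. Only 2.04% of genes in tumor cells had as low a mean change, and 29.2% were below NT in every RT library.

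In macrophages Fas was 14.8, 23.0, 29.9 and 29.5 CPM (0.88 ± 0.21), with 36 UMIs in NT and every RT library above it. RT1, with an interval of 19.9 to 26.6 CPM, overlapped the NT interval of 10.4 to 20.5. Monocytes had 32.4, 16.0, 23.9 and 23.3 CPM (-0.64 ± 0.33), below NT in each RT library. Of 12 myeloid sub-clusters, 6 were higher in every RT library and 4 were lower. Tumor cells had the lowest level of the 8 populations and were below all others in all 4 libraries, and the highest levels stood in neutrophils (71.0, 89.2, 117 and 90.9 CPM) and fibroblasts (101, 81.5, 42.0 and 60.4), on 2 and 6 NT UMIs. Endothelial cells passed the 2-fold rule with 9.86, 25.1, 30.3 and 28.7 CPM (1.503 ± 0.14), but on 2, 8, 18 and 3 UMIs, and the NT interval of 1.19 to 35.6 CPM holds every RT value.

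The cells that carried most Fas transcripts differed between the libraries. Tumor cells held 79.1% of Fas UMIs in NT and 34.8%, 30.2% and 58.0% in RT, and macrophages 5.92% in NT and 35.0%, 35.6% and 15.4% in RT. The level over all kept cells, 8.78, 6.91, 9.61 and 9.22 CPM, lay on both sides of NT. In the named cells the change was -0.07 ± 0.25, and -0.59 ± 0.42 at the NT composition. With the NT levels weighted by the RT compositions it was 0.26 ± 0.09.

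Tnfrsf10b, the death receptor of Tnfsf10, had its highest level in endothelial cells. Tumor cells came next by mean level but were not told apart from fibroblasts, whose intervals overlapped theirs. Tumor cells gave 54.2, 29.0, 27.4 and 33.4 CPM from 3388, 1713, 2188 and 2401 UMIs, and the NT interval of 52.4 to 56.0 CPM lies above all 3 RT intervals. The change was -0.86 ± 0.15, a mean change that 1.84% of genes in tumor cells matched or went below. It stayed between -0.94 and -0.80 under every alternative processing tried. The receptor was below NT in every RT library in 14 of 15 tumor sub-clusters. The exception, 442 cells led by the hypoxia genes Bnip3 and Car9, gave 27.5, 36.7, 21.2 and 33.7 CPM. A UMI was seen in 32.4%, 17.5%, 22.2% and 21.1% of tumor cells, or in 5.25%, 2.68%, 2.53% and 3.23% after thinning. In macrophages, which are shallower, the shares were 0.444%, 1.64%, 1.33% and 1.26%, or 0.161%, 0.535%, 0.399% and 0.341% after thinning.

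Endothelial cells stood above tumor cells, the next in order, in every library, at 83.8, 113, 104 and 105 CPM (0.36 ± 0.06), from 17, 36, 62 and 11 UMIs, with 25.2% of all genes above NT in every RT library there. With a mean over cells the endothelial change was 0.10 and the RT values lay both above and below NT. Lymphocytes gave 13.6, 25.9, 27.9 and 31.0 CPM (1.05 ± 0.13), all RT above NT, but the NT interval of 6.24 to 25.9 CPM overlaps that of each RT library (14.8 to 42.1, 20.5 to 37.1 and 19.5 to 47.0). Among these, CD8 T cells gave 14.3, 0, 26.9 and 33.0 CPM, on both sides of NT, and NK cells 0, 31.5, 23.7 and 25.5, with 0 UMIs in NT, which allows up to 16.1 CPM (3 UMIs). Tumor RNA scaled by the tumor gene Rhox5 would give 2.56, 1.58, 0.898 and 1.99 CPM of the lymphocyte values. In macrophages the 2-fold rule was passed at 1.24, 5.27, 3.06 and 4.63 CPM (1.77 ± 0.41), from 3, 43, 38 and 19 UMIs. Tumor RNA in the macrophage sums, scaled in the same way, would give 1.66, 1.05, 0.856 and 1.55 CPM, which in NT exceeds the measured level. With that part taken off and NT set to the floor of 3 counts, the change was 1.31 (0.83 to 1.77). This bound did not meet the 2-fold rule, so that the call was lost. A mean over cells in place of summed UMIs gave a change of 0.18, and the RT values then straddled NT. Neutrophils passed the 2-fold rule in the other direction (71.0, 30.9, 11.7 and 25.2 CPM, -1.77 ± 0.74) on 2 NT UMIs. With size factors the neutrophil change was -1.28 and the nearest RT library stood at -0.75, so that the call was lost. With a mean over cells it was 0.45, and the RT libraries ran from -1.13 to 1.46. Rhox5 in the neutrophils stood at 63.8%, 48.5%, 41.1% and 58.9% of its level in tumor cells. Tumor RNA scaled by it would give 34.5, 14.05, 11.3 and 19.7 CPM of their Tnfrsf10b.

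Over the tissue Tnfrsf10b followed the tumor cells, which held 95.6% of its UMIs in NT and 85.7%, 86.0% and 91.0% in RT. The level of all kept cells was 51.2, 25.7, 23.4 and 31.0 CPM (-0.95 ± 0.21), with NT above every RT library, as for 30% of all genes. At the NT composition the change was -0.83 ± 0.15, so most of it lay within populations.

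**Figure D3:**
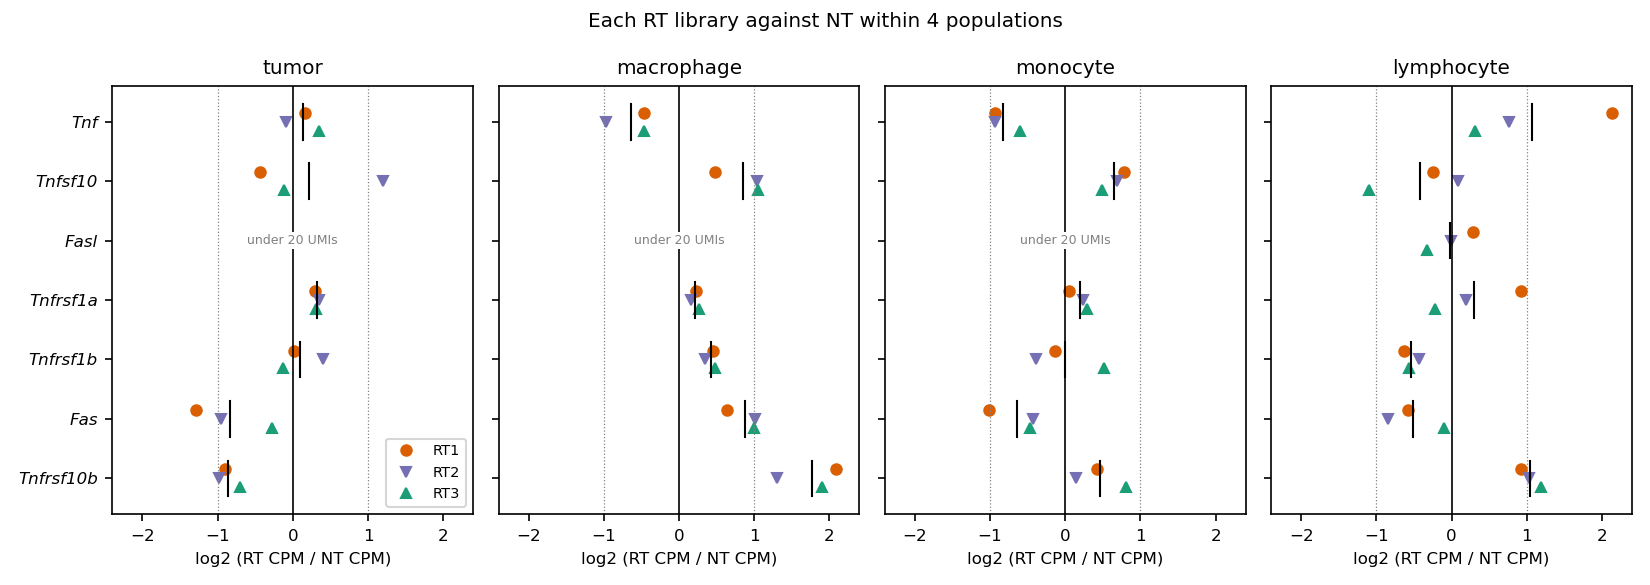
Log2 change of each of the 7 genes in tumor cells, macrophages, monocytes and lymphocytes, 1 point per RT library over the shared NT library, with a black tick at the mean and dotted lines at 2-fold. Fas and Tnfrsf10b lie below 0 in tumor cells and above it in macrophages, and Tnf lies below 0 in macrophages and monocytes.

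**Figure D4:**
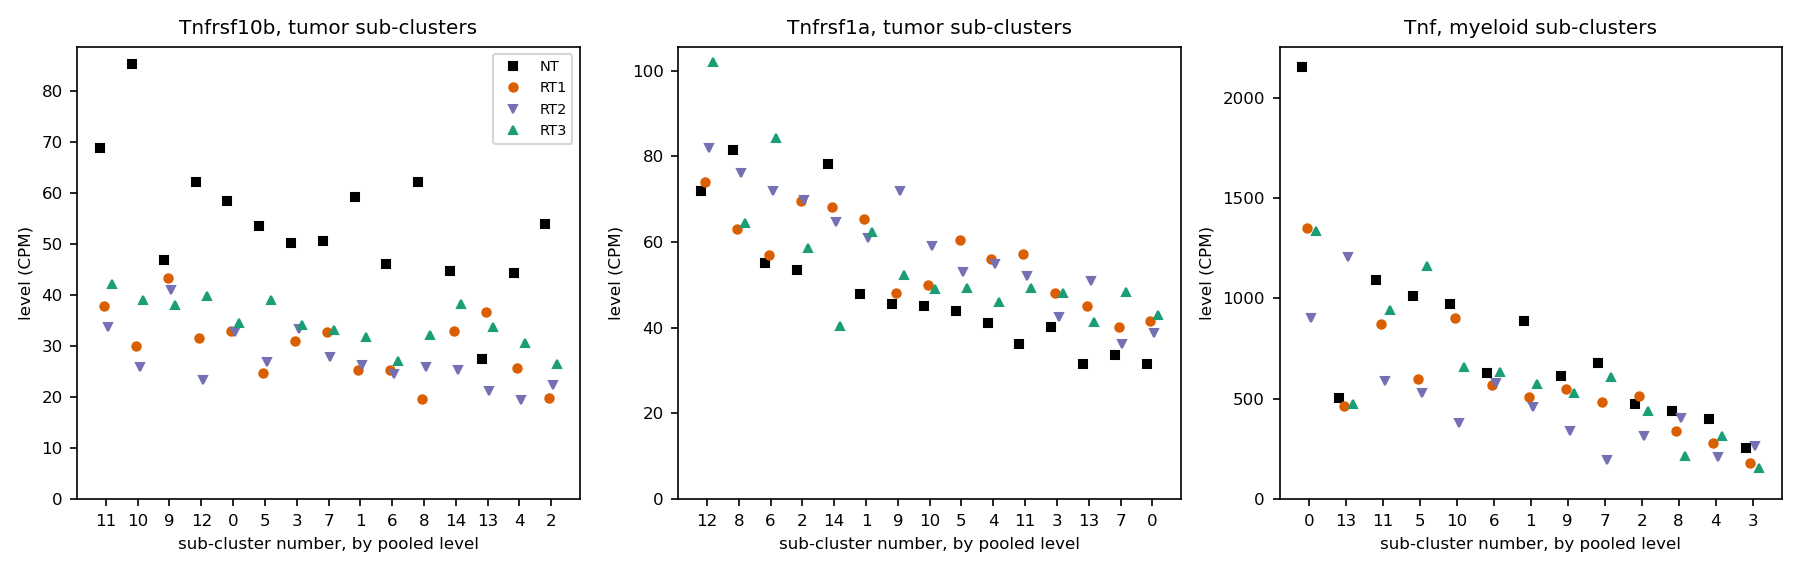
Level (CPM) of Tnfrsf10b and Tnfrsf1a in 15 tumor sub-clusters and of Tnf in 13 myeloid sub-clusters, 1 point per library. Tnfrsf10b is below NT in every RT library in 14 of 15 tumor sub-clusters, Tnfrsf1a is above it in 13 of 15, and Tnf is below it in 8 of 13 myeloid sub-clusters. The sub-clusters share the same libraries and are not replicates.

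Genes downstream of the receptors were described by the same rules. Over all genes the shares above and below NT in every RT library were 33.3% and 29.2% in tumor cells, 32.6% and 33.5% in macrophages, 40.5% and 23.8% in monocytes and 24.8% and 35.2% in lymphocytes, and the counts of each list stand beside these. Of 15 death-signal adaptors and effectors read in tumor cells (Fadd, Casp8, Ripk1, Bid and others), 5 were higher than NT in every RT library, 3 lower and 7 on both sides, with a median change of 0.02 beside 0.01 for all genes. In monocytes 10 of 14 were higher and 1 lower (median 0.55, all genes 0.11), among them Tradd, the adaptor of Tnfrsf1a, at 8.82, 19.4, 22.4 and 17.1 CPM. Macrophages had 5 higher and 5 lower of 15 (median -0.02) and lymphocytes 4 higher and 5 lower of 14 (median -0.07). Ripk3, the kinase of necroptosis, was below NT in macrophages (34.6, 18.7, 23.7 and 24.6 CPM). In lymphocytes it was more than 2-fold lower (31.8, 11.3, 8.91 and 7.05 CPM), where 1.26% of all genes were. The lymphocyte values rest on 48 UMIs in all. The make-up of the lymphocytes also differed between libraries, as given below, and its part in this was not tested.

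The death inhibitors gave 6 higher and 2 lower of 14 in tumor cells (median 0.07) and the same counts in macrophages (median 0.19). Sharpin, a subunit of the linear ubiquitin ligase that restrains Tnf-induced death, was above NT in every RT library in all 4 main populations. It stood at 12.5, 32.7, 44.7 and 20.3 CPM in tumor cells, and its mean change was 1.31 there, 1.55 in macrophages, 1.83 in monocytes and 1.16 in lymphocytes. Birc3, an inhibitor of apoptosis bound to the Tnf receptor complex, was 41.2, 55.4, 65.5 and 69.9 CPM in macrophages. In monocytes 5 of 14 inhibitors were higher and 5 lower (median 0.0043), and in lymphocytes 4 of 13 were higher and 2 lower (median 0.09).

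Of the other ligands of the family and their sheddases, 1 was higher and 3 lower of 8 read in tumor cells (median -0.16), 3 higher and 4 lower of 9 in macrophages (median -0.25), 3 and 3 of 9 in monocytes (median -0.35) and 4 and 3 of 11 in lymphocytes (median -0.01). Tnfsf15, a ligand of the death receptor Tnfrsf25, was 17.7, 1.59, 2.66 and 3.41 CPM in macrophages (-2.86 ± 0.56) and 26.5, 1.40, 2.91 and 3.43 in monocytes (-3.46 ± 0.69), past a 2-fold limit that 3.33% and 1.44% of all genes passed in that direction. Tnfsf14 (LIGHT), a T-cell costimulatory ligand, went the opposite way in monocytes at 1.96, 24.1, 21.5 and 32.6 CPM (3.71 ± 0.31) and in lymphocytes at 6.06, 19.4, 19.6 and 16.9 (1.62 ± 0.12), past a limit that 6.22% and 3.61% of all genes passed. The NT levels of Tnfsf14 rest on few UMIs, since 2.94 CPM is 3 UMIs in NT monocytes and 13.6 CPM is 9 UMIs in NT lymphocytes. The monocyte libraries with more Tnfsf14 are those with more neutrophil markers than NT, given above, whose part was not tested. The lymphocyte libraries with more Tnfsf14 likewise had more macrophage, neutrophil and mast cell markers than NT, whose part was not tested either. Lta (lymphotoxin), another ligand of the Tnf receptors, was 1.52, 17.8, 22.0 and 5.64 CPM in lymphocytes, on 53 UMIs in all. Its NT level likewise rests on few UMIs. Of the other receptors, 1 was higher and 3 lower of 9 in tumor cells (median -0.09), 2 and 0 of 7 in macrophages, 2 and 3 of 7 in monocytes and 1 and 0 of 4 in lymphocytes. In tumor cells Tnfrsf12a, the TWEAK receptor, was 33.4, 15.1, 23.6 and 22.8 CPM (-0.73 ± 0.36), below NT like Fas and Tnfrsf10b. The receptor Tnfrsf26 was above NT at 0.176, 0.491, 0.276 and 0.334 CPM (1.02 ± 0.42), on 86 UMIs in all.

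Fas and Tnfrsf10b are themselves p53 targets, so the other p53 targets were read beside them. In macrophages 12 of 16 were higher in every RT library and 2 lower, with a median of 0.76 beside -0.0031 for all genes, and 6 passed 2-fold. Phlda3 was 1.24 (3 UMIs), 23.9, 52.97 and 36.6 CPM there, Cdkn1a, the cell-cycle inhibitor, 300.1, 1379, 2084 and 1315, and Mdm2, the p53 ligase, 201, 409, 523 and 795. Lymphocytes had 12 of 17 higher and 1 lower (median 0.94, all genes -0.10), with Cdkn1a at 86.4, 495, 716 and 427 CPM, and monocytes 8 of 16 higher and 5 lower (median 0.27). The macrophage, neutrophil and mast cell markers given above for lymphocytes were also above NT in every RT library. Their part in the lymphocyte counts was not tested. In tumor cells the list was more even, 7 higher and 5 lower of 17 (median 0.15), with Aen, an apoptosis-enhancing nuclease, at 7.59, 18.7, 18.7 and 14.1 CPM. In tumor cells Fas and Tnfrsf10b stood on the side of the 5 lower genes, where 7 were higher. In macrophages Fas stood on the side of the 12 higher genes, as did Tnfrsf10b on summed UMIs. The NT level of Tnfrsf10b there was under its tumor RNA part, and a mean over cells gave a change of 0.18 with RT on both sides of NT. Fas was lower in lymphocytes (-0.51) and monocytes (-0.64), while Tnfrsf10b was higher in both (1.05 and 0.46). Lymphocyte Fas rests on 24, 15, 34 and 24 UMIs, with RT3 only -0.10 from NT. Monocyte Tnfrsf10b rests on 3 NT UMIs. Its change ran from -0.11 at resolution 1.2 to 2.26 with tumor RNA scaled by Rhox5 taken off.

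Response genes of TNF and interferon were counted in the same way. Of 16 TNF-response genes, 6 were higher and 6 lower in tumor cells (median 0.01), 6 higher and 2 lower in macrophages (median -0.02), 3 higher and 10 lower in monocytes (median -0.51) and 11 higher and 1 lower in lymphocytes (median 0.36). The part of macrophage, neutrophil and mast cell RNA in the lymphocyte count was not tested. In macrophages Icam1, an adhesion molecule, was 58.1, 219, 298 and 228 CPM and Ier3 347, 1100.0, 1816 and 890.2, both at least 2-fold higher. In monocytes Nfkbiz was 1342, 585, 525 and 649.9 CPM and Vcam1 159.8, 37.9, 41.5 and 38.7, while Icam1 was higher at 49.0, 135, 225 and 108. In tumor cells 10 of 15 interferon-response genes were higher and 1 lower (median 0.81), and 4 were at least 2-fold higher, as were 5.01% of all genes, with Oasl1 at 2.38, 12.8, 21.8 and 11.04 CPM. Of the same 15 genes, 6 were higher and 6 lower in macrophages, 6 and 4 in monocytes and 4 and 4 in lymphocytes.

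The killing genes of cytotoxic granules, the other route by which lymphocytes kill, were higher in every RT library for 9 of 12 in lymphocytes and lower for none (median 0.63), where 24.8% of all genes were higher, while Fasl in the same cells lay on both sides of NT. The make-up of the lymphocytes differed too, with 79, 160, 197 and 121 NK cells and summed NK markers (8 of 8, none at 0, led by Fcer1g) at 2118, 3826, 2718 and 2749.6 CPM. Summed CD8 T cell markers (8 of 8, none at 0, led by Trbc2) stood at 4355, 2058, 3619.8 and 2352 CPM, and the part of this make-up in the granule genes was not tested. Gzmf was 1331, 3154, 3426 and 5915 CPM. In macrophages 2 of 9 granule genes were higher, where 32.6% of all genes were. In monocytes 4 of 8 were higher, where 40.5% of all genes were, and none was lower in either. The monocyte genes past 2-fold, Gzma, Gzmb and Gzmf, each stood at 0.980 CPM in NT, where 3 UMIs make 2.94 CPM. In tumor cells 8 of 10 were higher, at low levels such as Gzma at 0.304, 0.998, 1.22 and 0.835 CPM, while the lymphocyte markers there (12 of 12, none at 0, led by Trac) summed to 3.88, 3.30, 5.12 and 3.48 CPM. The part of lymphocyte RNA in this was not tested.

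The genes most like each member over the 8 populations and 4 libraries (32 points, which share libraries and depth, Pearson r of log2 values as a description) came in part from the genes of 1 cell type. Fasl was nearest to the NK and T cell genes Klra8 (0.996), Klrg1 (0.9896) and Lat (0.980). Among the genes nearest to Tnf were Gmfg (0.931), Hcls1 (0.930) and the chemokine Ccl3 (0.910). Tnfsf10 was nearest to the endothelial gene Pecam1 (0.876), Tnfrsf10b to Spry4 (0.881), Tnfrsf1a to Oasl2 (0.911), Tnfrsf1b to Mxd1 (0.904) and Fas to Pnrc1 (0.814).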

How the data were processed

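The deposited values are UMI counts per gene and barcode, made by the authors from a microwell 3′ single-cell kit (SeekOne MM) with SeekOne Tools. The submitters' processing notes also name STAR 2.5.1b, Subread 1.6.4, featureCounts, Cell Ranger and the GRCm39 (mm39) build, with no role given. No columns of authors' comparisons were used. Genes listed in all 4 tables were kept.

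Barcodes needed 200 genes or more and no more than 20% of UMIs from mitochondrial genes. The counts were scaled to 10000 per cell and logged, and 2000 variable genes and 30 principal components were integrated with a rewritten Harmony (theta 2, lambda 1, sigma 0.1) over the 4 libraries. A graph of 20 neighbors was clustered with Leiden at resolution 0.8. Clusters were named from the highest mean level of fixed marker lists, with at least 3 markers detected, and split again within the lineages. The naming rule was settled after clusterings had been seen. Sub-clusters carrying another lineage's markers were set aside as mixed, other doublets were not removed, and removal by a simulated-doublet score is an alternative. Populations are rebuilt and may differ from the study's.

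UMIs were summed per library and population. A pair was read where the gene had at least 20 UMIs over the 4 libraries and the population at least 20000 UMIs in every library. A sum of 0 was set to a floor of 3 counts and used only in the direction it bounds. Genes from each list were named if past 2-fold (at most 4 by mean absolute change), otherwise the 2 with the largest change on the same side of NT in every RT library. The 5 most alike genes needed a mean of at least 10 CPM. The members and lists were chosen with earlier results of these data known. Libraries did not share counts within sampling noise. The method was tested on simulated data. Python 3.11.15, numpy 2.4.6, pandas 2.3.3, scipy 1.17.1, scikit-learn 1.9.0, igraph 0.11.9, leidenalg 0.10.2 and matplotlib 3.10.9 were used.

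Promoter windows came from RefSeq on GRCm38.p6, another build than the counts, and were matched by symbol for 6 of 7 genes. Proteins were not used here. Some genes that the naming rule gave are not reported here.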

Additional observations from a re-analysis of the deposited data

Results flagged for a closer look

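For 5 of the 7 genes, every RT library lay above NT in at least 1 population and below NT in another. Of all genes read in at least 5 populations 61.9% met the same rule, and nothing is read from the count. The difference between such populations was not tested, since NT is 1 library.

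For Fas the mean log2 changes were 2.34 apart between endothelial cells (1.503) and tumor cells (-0.84). It was higher in 3 populations (macrophages, neutrophils and endothelial cells) and lower in 4 (tumor cells, monocytes, lymphocytes and fibroblasts). The endothelial NT value rests on 2 UMIs, so the macrophages (0.88) and tumor cells are the pair with the most UMIs.

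For Tnfrsf10b the gap was 3.53, between macrophages (1.77) and neutrophils (-1.77), with NT values of 3 and 2 UMIs. With a mean over cells these changes were 0.18 and 0.45, each with RT on both sides of NT. Of the populations below NT, tumor cells (-0.86) hold the most UMIs.

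For Tnf the gap was 1.89, between lymphocytes (1.07) and monocytes (-0.82). For Tnfrsf1b it was 2.19, between fibroblasts (1.54) and dendritic cells (-0.65), and the fibroblast NT value is 1 UMI. At a mitochondrial limit of 10% no NT UMI was left there, so the fibroblast change could not be given. The dendritic change was 0.64 at resolution 1.2, and -0.43 with RT on both sides of NT with a mean over cells. In dendritic cells their own markers (10 of 10) summed to 5140, 3299, 2955 and 3557 CPM and monocyte markers (7 of 8) to 537, 1673, 1585 and 1646. Their part in the change was not tested. For Tnfrsf1a the gap was 1.54, between fibroblasts (1.10) and neutrophils (-0.44), from 6 and 8 NT UMIs. The neutrophil change was 0.0455 with size factors and 0.0226 without high doublet scores, each with RT on both sides of NT.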

How the results depend on the processing

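The count of pairs at least 2-fold apart was 4, and 29 pairs lay on the same side of NT. Leaving out 1 RT library in turn gave 4 to 7 and 32 to 37. The 7 pairs without RT1 included Tnfsf10 in macrophages, Tnfrsf10b in lymphocytes and Tnfrsf1b in endothelial cells. With populations of at least 50 NT cells, an alternative chosen after the data were seen, 1 pair of 29 read was 2-fold apart and 19 lay on the same side. The other alternatives gave 3 to 6 and 24 to 30. Where every RT library lay on the same side of NT in tumor cells, macrophages or lymphocytes, the mean change kept its sign under every alternative run. The change of Fas in tumor cells stayed between -1.12 and -0.62, that of Tnf in macrophages between -0.72 and -0.47 and that of Tnf in lymphocytes between 0.53 (without RT1) and 1.45. Size factors and the 10% mitochondrial limit each left RT libraries on both sides of NT for Tnfrsf1a in monocytes (0.0926 and 0.15) and Fas in lymphocytes (-0.43 and -0.47). A mean over cells did so for Tnfrsf1a in monocytes (0.0504), Tnfrsf10b in macrophages and in endothelial cells (0.10), Fas in fibroblasts (-0.28) and Tnfrsf1b in dendritic cells (-0.43). With the tumor RNA part taken off, the NT level of Tnfrsf10b in macrophages fell under 0. Set to the floor of 3 counts, it gave a bound of 1.31 on the change, and the 2-fold call was lost. Tnf in monocytes ranged up to -0.44 at resolution 1.2, and Tnfrsf10b in macrophages from 0.18 with a mean over cells to 3.30 on 1 NT UMI at resolution 1.2. In neutrophils, which have 20 NT cells, Tnfrsf1a became 0.0455 and Tnfrsf1b 0.0344 with size factors, which shift all neutrophil changes by 0.49, Tnfrsf1a 0.0226 without high doublet scores and Tnfrsf10b 0.45 with a mean over cells. At a mitochondrial limit of 10%, the change in fibroblasts became 0.97 for Tnfrsf1a, which ends its 2-fold call, while Tnfrsf1b had no NT UMI left. At resolution 1.2 Tnfrsf10b in monocytes became -0.11 and Tnfrsf1b in dendritic cells 0.64. The cause of these was not tested. No paired analysis was possible because NT is 1 library of pooled tumors and its replicate number pairs it with no RT tumor. Depth limits the rare populations, whose NT levels rest on 1 to 18 UMIs for most genes.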
